A study of Homo sapiens with 12 samples.

Results

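The genes described here build the tight junction, the belt of contacts that seals the space between neighbouring epithelial cells. They were taken by name: every gene whose symbol is CLDN followed only by digits (23 claudins), and OCLN, TJP1, TJP3, CGN, F11R, JAM2, JAM3, MARVELD2, MARVELD3 and CXADR (10 genes). All 33 were found, out of 25647 genes listed for every library. RNA came from 3 human carcinoma lines of different origin: MHCC97H (hepatocellular carcinoma), HCT116 (colorectal carcinoma) and A549 (lung adenocarcinoma). Cells of each were untreated or received 1 of 3 inhibitors of chromatin enzymes: trichostatin A (TSA, histone deacetylases) at 1 µM, GSK126 (the histone methyltransferase EZH2) at 50 µM, or S2101 (the histone demethylase LSD1) at 100 µM. Every line and condition has 1 library, 12 in all, so a condition is replicated only across the 3 lines (n = 3) and no culture was repeated. How long the cells were treated, and in what vehicle, is not given in the sources used here. HCT116 was cultured in another medium than the other lines, so line and medium cannot be told apart for it.

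Claudins are small membrane proteins that pair across the gap between cells. Some, such as CLDN2, CLDN10 and CLDN15, form channels for small ions, and others, such as CLDN1, CLDN3 and CLDN4, mainly tighten the seal. Occludin (OCLN), tricellulin (MARVELD2) and MARVELD3 share a second membrane fold, and tricellulin sits where the corners of cells meet. The junctional adhesion molecules (F11R, which encodes JAM-A, JAM2 and JAM3) and CXADR, the receptor for coxsackie B viruses and many adenoviruses, are immunoglobulin-like adhesion proteins. TJP1 and TJP3 (ZO-1 and ZO-3) and cingulin (CGN) lie on the inner face of the membrane and tie the junction to the actin cytoskeleton. Which claudins a cell carries sets how leaky its epithelium is and to what.

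The libraries held 14468304 to 19061367 counts each, and 3 reads, taken as the lowest level that can be told from 0, corresponded to 0.157 to 0.207 CPM, the counts scaled to library size. Differences between conditions or lines are log2 changes from edgeR's quasi-likelihood test over all 12 libraries, with condition and line in 1 model. They are called at a Benjamini-Hochberg adjusted p under 0.05 over all 16929 genes tested. Each p sets a change against a spread that the libraries share between lines, not between repeat cultures, so a gene that moved in only 1 or a pair of lines can pass. Levels of different genes are compared as RPKM, the authors' read density scaled for transcript length and library size. In bulk RNA, fewer cells with a transcript and less of it in each cell cannot be told apart. Tissue markers were mostly near 0. Of 6 liver markers at most 2 reached 1 RPKM in a MHCC97H library, and albumin (ALB) lay between 0.0904 and 0.458 RPKM there. Lung alveolar markers summed to between 0.881 and 1.62 RPKM in A549, where surfactant gene SFTPC was at or under 0.227. The lung sum was higher in HCT116, at 1.54 to 3.02 RPKM, and was 0.675 to 1.41 in MHCC97H. Of the blood and vessel markers, PECAM1 measured 3.2 to 10.5 RPKM in MHCC97H. Colon markers summed to between 5.28 and 6.18 RPKM in HCT116, nearly all of it CDX2, and to between 34.3 and 54.1 in MHCC97H, mostly CDH17. The colon list was thus higher in the libraries labelled MHCC97H than in those labelled HCT116. Lines are named as labelled throughout, and every comparison between lines rests on those labels.

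The start regions of 3 members are shown because these genes gave the largest called decrease, the only other called decrease and the only called increase of a gene above 20 RPKM under TSA. The sequences are the 250 bases before an annotated start, 5′ to 3′ on the plus strand, from RefSeq on GRCh38.p14, cut short where GENCODE 29 places an exon. Capitals mark a GC box (GGGCGG or its complement CCGCCC), the site bound by SP1-type factors.
CGN chr1:151511137-151511386: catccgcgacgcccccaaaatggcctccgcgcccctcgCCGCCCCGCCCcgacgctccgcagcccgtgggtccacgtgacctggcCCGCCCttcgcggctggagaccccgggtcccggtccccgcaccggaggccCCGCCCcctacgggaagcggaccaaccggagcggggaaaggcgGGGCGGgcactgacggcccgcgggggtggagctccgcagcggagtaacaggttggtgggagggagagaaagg
MARVELD2 chr5:69414866-69415064: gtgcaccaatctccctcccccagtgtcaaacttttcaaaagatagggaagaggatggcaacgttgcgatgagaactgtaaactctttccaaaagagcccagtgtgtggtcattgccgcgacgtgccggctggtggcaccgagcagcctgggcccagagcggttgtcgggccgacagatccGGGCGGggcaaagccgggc
CLDN2 (first start) chrX:106899914-106900062: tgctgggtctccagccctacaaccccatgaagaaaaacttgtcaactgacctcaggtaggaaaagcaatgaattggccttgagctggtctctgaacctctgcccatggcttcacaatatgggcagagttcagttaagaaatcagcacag
CLDN2 (second start) chrX:106918110-106918359: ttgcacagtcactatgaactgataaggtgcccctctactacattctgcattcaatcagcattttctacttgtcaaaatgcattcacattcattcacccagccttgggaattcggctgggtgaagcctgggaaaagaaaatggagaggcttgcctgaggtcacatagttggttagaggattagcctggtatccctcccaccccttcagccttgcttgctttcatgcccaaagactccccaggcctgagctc

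The CGN window holds 5 GC boxes and 32 CpG dinucleotides and is 76% G and C. It lies within the span of the gene (151510170 to 151538692), before an internal annotated start. The 2 CLDN2 windows, taken over their full 250 bases, hold no GC box and 0 and 1 CpG, a count of at most 1 that 14.7% of all promoters share. The full MARVELD2 window holds 3 GC boxes, of which 1 lies in the stretch printed. Of 36 starts of 23 members in the table, 18 (50%) held a GC box, against 42.6% of all 35116 promoters of the same length. The E-box CAGGTG or its complement CACCTG, the site of the SNAI and ZEB repressors, was in 8 (22.2%) against 17.5%. These are letters in a window, and binding was not measured.

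Each line carried a different claudin set. In untreated MHCC97H, CLDN2 made up 44.2% of the summed claudin RPKM (179) and CLDN4 38.8%. In untreated A549 the sum was 57.8 RPKM, and CLDN1 held 50.4% of it. In untreated HCT116 the sum was 154 RPKM, with CLDN7 at 51.2% and CLDN4 at 33.4%. CLDN12, a claudin without the usual binding motif for ZO proteins, was at 7.80 RPKM or more in every library. It measured 18.7, 22.5, 24.6 and 28.6 RPKM in MHCC97H (untreated, TSA, GSK126, S2101). In A549 it measured 9.33, 7.90, 21.4 and 15.2, and in HCT116 9.51, 7.80, 13.8 and 10.1. Other annotated genes on the same strand each share at most 5.5% of the CLDN12 exon bases, so its reads are in part uncertain. Of the 33 genes, 8 reached 20 RPKM in some library (CLDN1, CLDN2, CLDN4, CLDN7, CLDN12, TJP1, CGN and F11R), 15 peaked between 1 and 20, and 10 stayed under 1 RPKM in all 12. The low group is CLDN5, CLDN8, CLDN14, CLDN16, CLDN17, CLDN18, CLDN19, CLDN24, CLDN25 and JAM2, and CLDN17 had 0 reads in every library. CLDN5 is the claudin of blood vessel walls, CLDN16 and CLDN19 act together in the kidney, and CLDN14 in the inner ear and kidney.

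**Figure D1:**
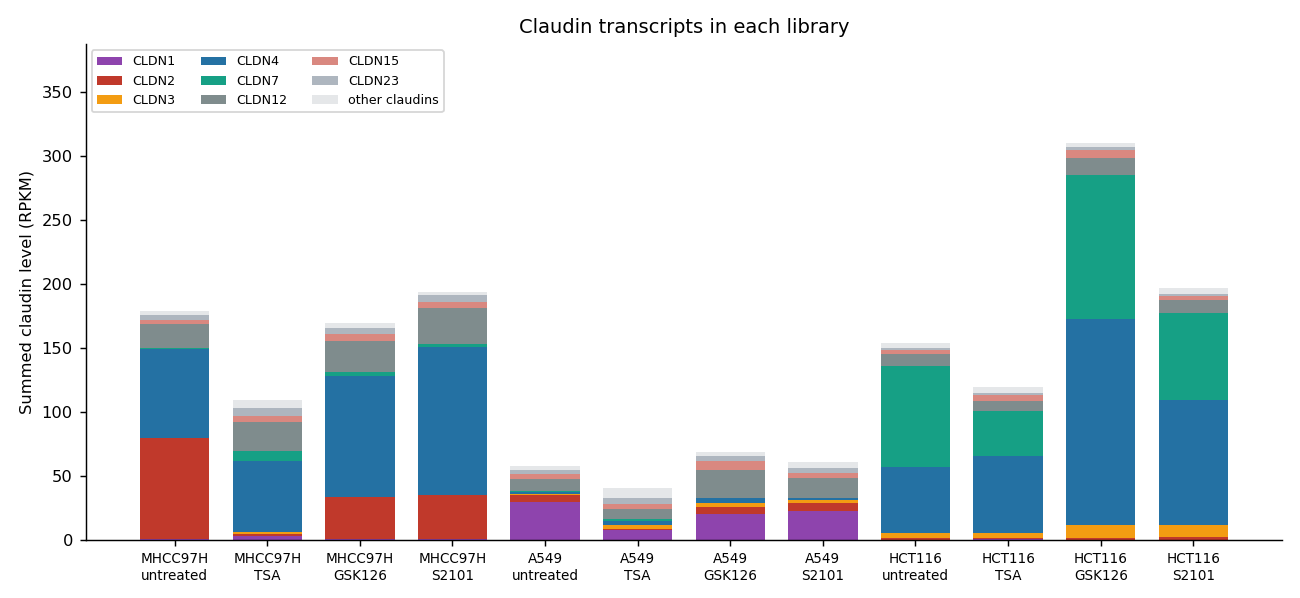
Summed RPKM of all 23 claudins in each of the 12 libraries (1 bar per library, y axis in RPKM from 0), coloured by gene. CLDN2 fills 44.2% of the untreated MHCC97H bar and CLDN1 50.4% of the untreated A549 bar, while CLDN7 and CLDN4 make up most of each HCT116 bar.

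Differences between lines were tested over the 4 conditions, so the 4 libraries of a line are differently treated cultures. Between MHCC97H and A549, 15 of 27 tested members were called (55.6%), where 43% of all genes tested were called. Of these, 9 were higher in MHCC97H (all genes 20.4%) and 6 lower (all genes 22.6%). Between HCT116 and A549 it was 12 members (44.4%, all genes 43.7%), 7 higher in HCT116 (all genes 20.9%) and 5 lower (22.8%). Between HCT116 and MHCC97H it was 17 (63%, all genes 54.4%), 9 higher in HCT116 (all genes 27.5%) and 8 lower (26.9%). CLDN10 (log2 difference -2.18) and CLDN22 (1.00), called between MHCC97H and A549, overlap exons of DZIP1 and WWC2. DZIP1 (-2.39) and WWC2 (0.54) were called there in the same directions, and the source of the shared reads is uncertain. Between HCT116 and A549, CLDN10 (-2.54) and DZIP1 (-6.55) were both called lower. JAM3 (-3.04) and MARVELD3 (2.65) were called there opposite to the overlapping NCAPD3 (0.77) and PHLPP2 (-0.68). Between MHCC97H and A549 the count of called members was 6 without the S2101 libraries (all genes 25.1%). It was 8 without the untreated ones (28.5%) and 9 without those under GSK126 (30.2%). Between HCT116 and MHCC97H it was 11 without the untreated libraries (all genes 41.5%).

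CLDN4, CLDN7 and CLDN1 each had libraries of 1 line apart from all libraries of the others. CLDN4 (chromosome 7, 73830996 to 73832690), a high-level claudin of many epithelia, measured 69.4, 55.5, 94.5 and 115 RPKM in MHCC97H (untreated, TSA, GSK126, S2101) and 51.4, 59.8, 161 and 97.7 in HCT116. In A549 it measured 1.54, 3.01, 4.04 and 1.80 RPKM. The A549 values lay far below every library of the other lines: the log2 difference was 5.15 ± 0.34 (SE) for MHCC97H over A549 (adjusted p = 1.4e-05) and 4.99 ± 0.34 for HCT116 over A549 (adjusted p = 1.22e-05). CLDN7 (chromosome 17, 7259903 to 7263213), which binds the adhesion protein EPCAM, was high in HCT116 alone. It measured 78.8, 35.8, 112 and 67.9 RPKM there, 1.29, 7.67, 3.28 and 2.40 in MHCC97H, and 0.314, 1.59, 0.285 and 0.291 in A549. CLDN7 was higher in HCT116 than in A549 by 7.18 ± 0.70 on the log2 scale (edgeR adjusted p = 7.76e-05). EPCAM itself, an epithelial surface marker, measured 62.8 to 170 RPKM in HCT116, 1.11 to 4.67 in A549 and 0.108 to 0.513 in MHCC97H. Another annotated gene shares 10.8% of the CLDN7 exon bases, so its reads are in part uncertain.

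CLDN1 (chromosome 3, 190305707 to 190322446) is needed for the skin barrier and used by hepatitis C virus to enter liver cells. It was the main claudin of A549 in the untreated and S2101 libraries. Under TSA and GSK126, CLDN12 was slightly higher there, at 7.90 and 21.4 RPKM. CLDN1 measured 29.1, 7.46, 20.2 and 22.2 RPKM in A549. In MHCC97H it measured 0.325, 3.14, 0.301 and 0.652. In HCT116 it measured 0.0532, 0.563, 0 and 0.0342, which is 29 reads under TSA and at most 3 in the other libraries. Its log2 difference was -7.94 ± 1.08 for HCT116 against A549 (edgeR adjusted p = 0.000438) and -5.00 ± 0.92 for MHCC97H against A549 (adjusted p = 0.00231). CLDN2 was called higher in MHCC97H than in A549 (2.86 ± 0.72, adjusted p = 0.0106) and in HCT116 (log2 difference of HCT116 against MHCC97H -4.23 ± 0.83, adjusted p = 0.00223), though its level in the MHCC97H TSA library was 1.32 RPKM. The call against A549 was lost without the untreated (0.0585), GSK126 (0.0587) or S2101 (0.0608) libraries. Outside the claudin family, MARVELD3, a relative of occludin, was high in HCT116. It lay between 7.23 and 11.3 RPKM there and at or under 1.90 in the other 8 libraries, with a log2 difference of 3.16 ± 0.26 over MHCC97H (adjusted p = 1.73e-05) and 2.65 ± 0.25 over A549 (adjusted p = 6.63e-05). Reads of MARVELD3 could in part come from PHLPP2, which overlaps 16.6% of its exon bases on the other strand.

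OCLN and CXADR were both called lower in MHCC97H than in each other line, though the OCLN call against A549 (adjusted p = 0.0425) was lost without the untreated (0.197), GSK126 (0.113) or S2101 (0.0788) libraries. OCLN lay between 1.86 and 4.08 RPKM in MHCC97H, 3.98 and 5.88 in A549, and 6.46 and 16.7 in HCT116, and all 3 line differences were called. TJP1 (chromosome 15, 29699367 to 29969049), the scaffold ZO-1, had the smallest ratio of highest to lowest RPKM of the 8 genes that reached 20 RPKM. It measured 36.1, 38.7, 34.7 and 37.0 RPKM in MHCC97H, 57.3, 35.3, 42.9 and 41.0 in A549, and 26.8, 22.1, 37.9 and 34.5 in HCT116. It was called only between HCT116 and A549 (log2 difference -0.63 ± 0.19, adjusted p = 0.0249). F11R (chromosome 1, 160995211 to 161021152), or JAM-A, measured 35.7, 28.2, 46.8 and 37.3 RPKM in HCT116. In MHCC97H it measured 11.6, 36.1, 14.6 and 18.1, and in A549 10.6, 24.4, 24.7 and 17.8, so the ranges of these lines overlap and HCT116 lies above that of A549. F11R was called higher in HCT116 than in A549 (0.95 ± 0.30, adjusted p = 0.0268) and in MHCC97H (0.82 ± 0.30, adjusted p = 0.042). Like the TJP1 call, the first was lost without the untreated libraries and without those under S2101, and both F11R calls were lost without any 1 of the untreated, GSK126 and S2101 sets. Another annotated gene shares 36.6% of the F11R exon bases.

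**Figure D2:**
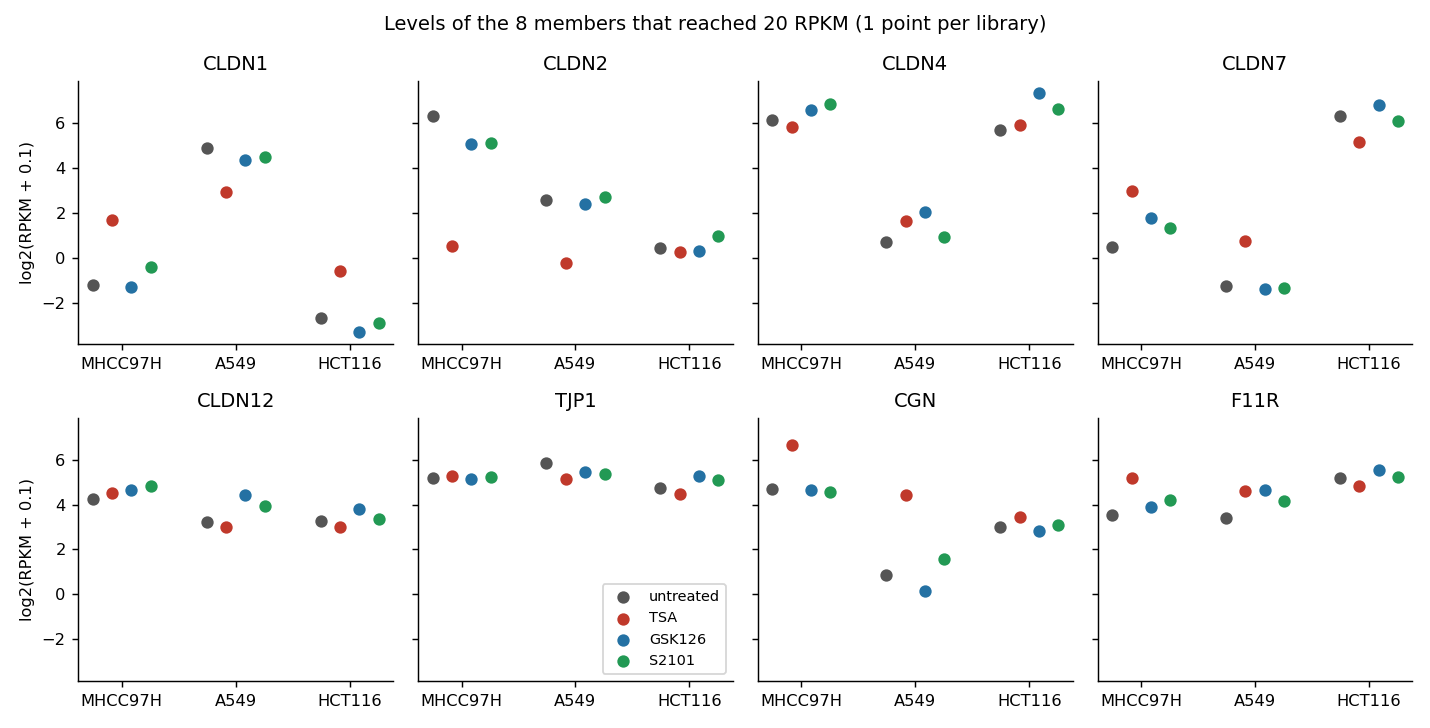
Levels of the 8 members that reached 20 RPKM, 1 point per library, as log2(RPKM + 0.1), grouped by line on the x axis and coloured by condition. CLDN4 is lowest in the 4 A549 libraries, CLDN7 highest in the 4 HCT116 libraries and CLDN1 highest in the 4 A549 libraries, TJP1 lies within 22.1 to 57.3 RPKM in all 12 libraries, and the TSA points of CLDN2 and CGN leave their line's other points in MHCC97H and A549.

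Over the 12 libraries, the line accounted for a median of 62.7% of each tested member's variation on the log2(CPM + 1) scale and the condition for 18.9%. Over all 16915 genes that reached 1 CPM in a library the medians were 53.6% and 24.5%. The line share exceeded the condition share in 23 of 27 members (85.2%) and in 64.7% of those genes. CLDN6, CLDN15, CLDN16 and CLDN19 were the 4 exceptions. CLDN23, MARVELD3, CLDN4 and CLDN7 had over 90% of their variation between lines.

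**Figure D3:**
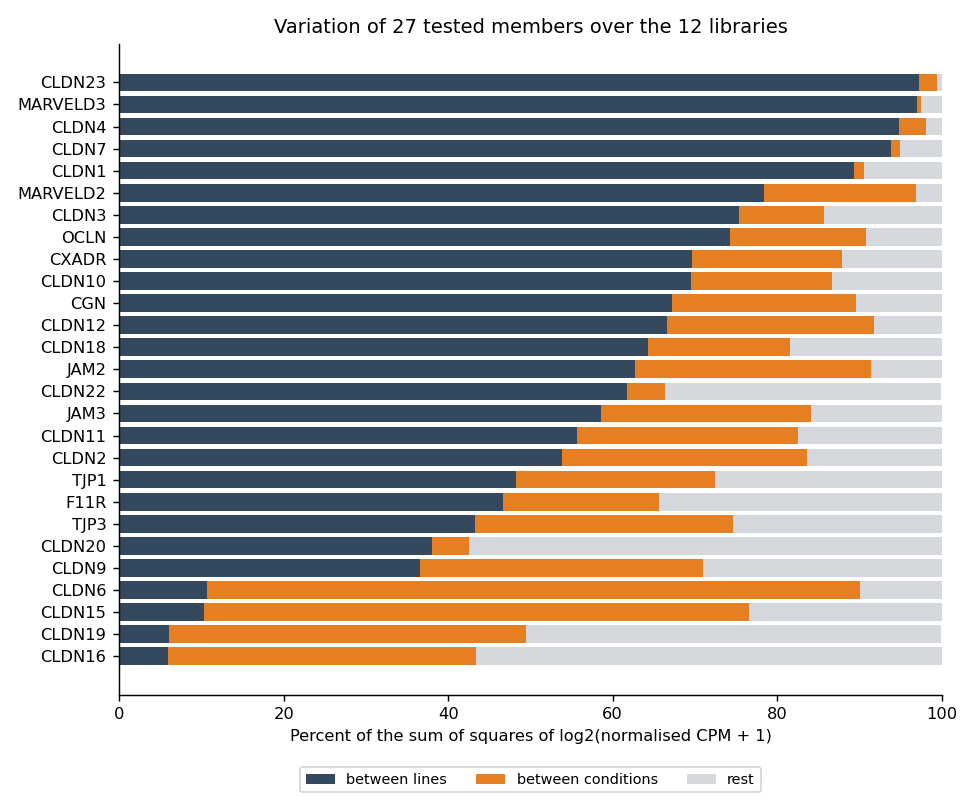
Share of the sum of squares of log2(normalised CPM + 1) that lies between lines, between conditions and in the rest, for the 27 tested members (1 bar per gene, x axis in percent). The line share is above the condition share for 23 genes and below it for CLDN6, CLDN15, CLDN16 and CLDN19, and the rest is the widest part for CLDN16, CLDN19 and CLDN20.

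Under TSA the called members went in both directions. Against untreated cells 9 of 27 tested members were called (33.3%), beside 34.6% of all genes tested. Of these, 7 were higher (CGN, TJP3, JAM3, CXADR, CLDN6, CLDN10 and CLDN11; all genes higher 17.4%) and 2 lower (CLDN2 and MARVELD2; all genes lower 17.2%). The median log2 change of the 27 was 0.59 and that of all genes 0.08. The other 6 members were too low to test: CLDN5, CLDN8, CLDN14, CLDN17, CLDN24 and CLDN25. No call of the 9 held in a fit without MHCC97H (CLDN11 not tested there), without A549 (CLDN10 not tested) or on only the 6 libraries compared, and in those fits 1152, 12 and 0 of all genes were called. Without HCT116, 10 members were called (all genes 40%): CLDN6 (adjusted p = 0.0645) and CXADR (0.078) lost their calls, and CLDN7, CLDN9 and F11R gained one.

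Within a line, members at least 2-fold higher under TSA numbered 10 in MHCC97H (15.9% of all genes at 1 CPM or more), 7 in A549 (16.7%) and 1 in HCT116 (7.83%). Members at least 2-fold lower numbered 2 (14.5%), 2 (15.4%) and 1 (5.05%). These within-line changes are log2 ratios of normalised CPM plus 1, with 1 library on each side and no test. Members at 1 CPM or more went from 18 untreated to 22 under TSA in MHCC97H and from 18 to 25 in A549, and were 21 in both HCT116 libraries. At 0.1 CPM or more they were 27 and 28 in MHCC97H, 29 and 28 in A549, and 28 and 29 in HCT116. The share of all genes at 1 CPM is not given here. At another threshold, all genes listed at 0 went from 30.3% to 23.3% in MHCC97H, from 29.2% to 22.2% in A549 and from 28.1% to 22.7% in HCT116.

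CLDN2 (chromosome X, 106900164 to 106930861), the main channel-forming claudin for sodium and water in leaky epithelia, gave the largest change. It measured 79.0 RPKM in untreated MHCC97H and 1.32 under TSA, with 32.8 under GSK126 and 34 under S2101. In A549 it measured 5.75 untreated, 0.746 under TSA, 5.08 under GSK126 and 6.38 under S2101. HCT116 held little of it in any condition, at 1.26, 1.10, 1.11 and 1.83 RPKM. TSA gave the lowest level in each line, by a wide margin in MHCC97H and A549 and by 1.10 against 1.11 RPKM in HCT116, and the 4014 reads of untreated MHCC97H stood against 61 under TSA. The log2 change over the lines was -3.00 ± 0.94 (edgeR adjusted p = 0.0355), made of -5.81 in MHCC97H, -2.71 in A549 and -0.22 in HCT116. It was -1.48 without MHCC97H (adjusted p = 0.231), -2.75 without A549 (0.264) and -4.72 without HCT116 (0.00539). RIPPLY1, which overlaps 10% of the CLDN2 exon bases on the other strand, lay at or under 0.217 RPKM in every library. The start regions printed above for CLDN2 are the ones with neither GC boxes nor more than 1 CpG. The full window of MARVELD2, also called lower, holds 3 GC boxes, and any tie between these letters and the change was not tested.

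Of the other channel-forming claudins, CLDN10 rose and CLDN15 and CLDN16 did not pass the test. CLDN10 (chromosome 13, 95433755 to 95579759), whose isoforms conduct cations or anions, had 16 reads in untreated A549 and 82 under TSA, 5 and 11 in MHCC97H, and 4 and 8 in HCT116. Under GSK126 and S2101 it had 23 and 31 in A549, 8 and 5 in MHCC97H, and 3 and 10 in HCT116. The A549 level went from 0.384 to 2.08 RPKM, and the log2 change over the lines was 1.55 ± 0.48 (adjusted p = 0.0335). Its counts are uncertain, since 46.1% of its exon bases overlap DZIP1 on the other strand and the handling of strand is not given. DZIP1 measured 4.24 RPKM in untreated A549 and 2.96 under TSA, and its log2 change over the lines was 0.39 ± 0.48 (adjusted p = 0.552). CLDN15 lay between 2.93 and 7.19 RPKM in all libraries, with a log2 change of 0.09 ± 0.25 under TSA.

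The sealing claudins gave 1 call of 6 tested (16.7%, all genes 34.6%), CLDN11. CLDN11 (chromosome 3, 170418868 to 170434691), the claudin of myelin and of the blood-testis barrier, had 17, 4 and 0 reads untreated in MHCC97H, A549 and HCT116 and 60, 21 and 4 under TSA. Under GSK126 it had 16, 5 and 5, and under S2101 14, 8 and 5, so HCT116 had no more under TSA than under those compounds. Its log2 change was 1.96 ± 0.68 with an adjusted p of 0.049958, the nearest of the calls to the threshold, and 18.3% of its exon bases are shared with another annotated gene. The call was lost without a filter on low counts (adjusted p = 0.0541). CLDN6 (chromosome 16, 3014712 to 3018183), a claudin of early embryonic epithelia, rose from 2, 3 and 5 reads to 10, 17 and 24 in the same order of lines, with 0, 2 and 5 under GSK126 and 1, 6 and 1 under S2101. All 3 TSA libraries lay above all 9 others, whose highest count was 6, and the log2 change was 2.28 ± 0.72 (adjusted p = 0.0372). It stayed low in absolute terms, with at most 1.16 RPKM, and was lost in DESeq2 (adjusted p = 0.0589). TNFRSF12A overlaps 2.3% of the CLDN6 exon bases on the other strand, so reads of CLDN6 are in part uncertain. CLDN9, which lies next to CLDN6, changed by 1.67 ± 0.58 and missed edgeR's threshold (adjusted p = 0.0514). CLDN9 passed with RLE factors (0.0473), in DESeq2 (0.0487) and in edgeR without HCT116 (0.00773), the fit in which CLDN6 lost its call (0.0645).

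CLDN4 led the summed claudin RPKM in no untreated library. It led in every treated library of MHCC97H and HCT116, with 51% and 50.2% under TSA. CLDN4 did not pass the edgeR test under TSA (log2 change 0.08 ± 0.34, adjusted p = 0.873), nor did CLDN12 (-0.25 ± 0.23, adjusted p = 0.407). The line claudins CLDN1 and CLDN7 went in opposite directions in different lines. CLDN1 went from 29.1 to 7.46 RPKM in A549, where it was highest, and from 0.325 to 3.14 in MHCC97H. CLDN7 went from 78.8 to 35.8 RPKM in HCT116, where it was highest, and from 1.29 to 7.67 in MHCC97H. Neither was called over the lines by edgeR (adjusted p = 0.257 and 0.201), and the differences between lines were not tested. DESeq2, which called 36.8% of all genes under TSA, called CLDN1 higher (adjusted p = 0.0454), and edgeR without HCT116 called CLDN7 higher (0.0117). CLDN23, a claudin of gut and other epithelia, was not called by edgeR under any compound and lay at 4.23 to 6.06 RPKM in MHCC97H, 3.14 to 4.30 in A549 and 1.49 to 1.80 in HCT116. The low claudins CLDN9, CLDN18, CLDN19, CLDN20 and CLDN22 peaked at or under 1.48 RPKM and were not called by edgeR under any compound. CLDN22 lies wholly within exons of WWC2 on the other strand, so its reads cannot be told apart from those of WWC2. CLDN3, another sealing claudin, went from 0 to 1.61 RPKM in MHCC97H, from 1.11 to 3.63 in A549 and from 4.18 to 3.66 in HCT116, without a call in edgeR (1.73 ± 0.85, adjusted p = 0.137) and with one in DESeq2 (0.0398).

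Among the genes of the plaque proteins, CGN and TJP3 were called higher under TSA. CGN (chromosome 1, 151510170 to 151538692) measured 26.1 RPKM untreated and 99.1 under TSA in MHCC97H, against 24.8 under GSK126 and 23.1 under S2101. In A549 it measured 1.69, 21.2, 1.01 and 2.89, and in HCT116 7.79, 10.9, 6.89 and 8.33, in the same order. TSA gave the highest value of each line. The log2 change was 2.06 ± 0.58 (edgeR adjusted p = 0.0239), made of 1.70 in MHCC97H, 3.28 in A549 and 0.39 in HCT116. It was 1.19 without A549 (adjusted p = 0.127) and 2.30 without MHCC97H (0.131). The GC-rich window printed above for CGN precedes an annotated start inside this gene.

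TJP3 (chromosome 19, 3708384 to 3750813) measured 0.284 RPKM in untreated A549 and 9.90 under TSA, 3.48 under GSK126 and 1.75 under S2101. In MHCC97H it measured 1.94 untreated, 15.5 under TSA, 6.67 under GSK126 and 9.35 under S2101. HCT116, at 10.1 RPKM untreated, had 7.71 under TSA, 17.0 under GSK126 and 15.6 under S2101, so its TSA library was the lowest of that line. The log2 change under TSA was 2.37 ± 0.80 (adjusted p = 0.0456), 1.27 without A549 (0.306) and 3.75 without HCT116 (0.00676). TJP1, whose level went from 57.3 to 35.3 RPKM in A549, did not pass the test (-0.49 ± 0.22, adjusted p = 0.113).

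The tricellulin transcript fell in all 3 lines under TSA. MARVELD2 (chromosome 5, 69415116 to 69444330) measured 4.85 RPKM untreated and 2.38 under TSA in MHCC97H, 2.78 and 1.76 in A549, and 9.57 and 7.32 in HCT116. Under GSK126 and S2101 it stayed between 2.43 and 2.71 in A549, 5.16 and 5.79 in MHCC97H and at 11.1 in both HCT116 libraries, so the TSA library was the lowest of each line. The log2 change was -0.86 ± 0.23 (edgeR adjusted p = 0.0191), with -1.11, -0.75 and -0.45 in the lines. Its relatives were not called: OCLN changed by -0.05 ± 0.26 and MARVELD3 by -0.01 ± 0.29.

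Of the immunoglobulin-like members, JAM3 and CXADR rose. JAM3 (chromosome 11, 134069072 to 134152001), an adhesion molecule also found on vessel and germ cells, measured 0.968 RPKM untreated and 8.06 under TSA in MHCC97H and 2.54 and 7.5 in A549. HCT116 had 0.384 and 0.475. The GSK126 and S2101 libraries lay between 0.338 and 2.61 RPKM. The log2 change was 1.77 ± 0.60 (adjusted p = 0.0456) and 0.91 without MHCC97H (0.185). NCAPD3, which overlaps 8.53% of the JAM3 exon bases on the other strand, changed by -0.93 ± 0.28 (adjusted p = 0.0328), opposite in sign.

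CXADR (chromosome 21, 17513043 to 17636262) measured 1.67 RPKM untreated and 7.10 under TSA in MHCC97H, 6.10 and 8.99 in A549, and 7.21 and 14.3 in HCT116. It measured 2.24 and 2.18 under GSK126 and S2101 in MHCC97H, 12.3 and 7.62 in A549, and 11.8 and 9.08 in HCT116, and the A549 GSK126 library exceeded the TSA one. The log2 change under TSA was 1.11 ± 0.33 (edgeR adjusted p = 0.0292), 0.66 without MHCC97H (0.127) and 1.26 without HCT116 (0.078). F11R was not called (0.72 ± 0.34, adjusted p = 0.131), though its level went from 11.6 to 36.1 RPKM in MHCC97H. JAM2 stayed at or under 0.354 RPKM.

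**Figure D4:**
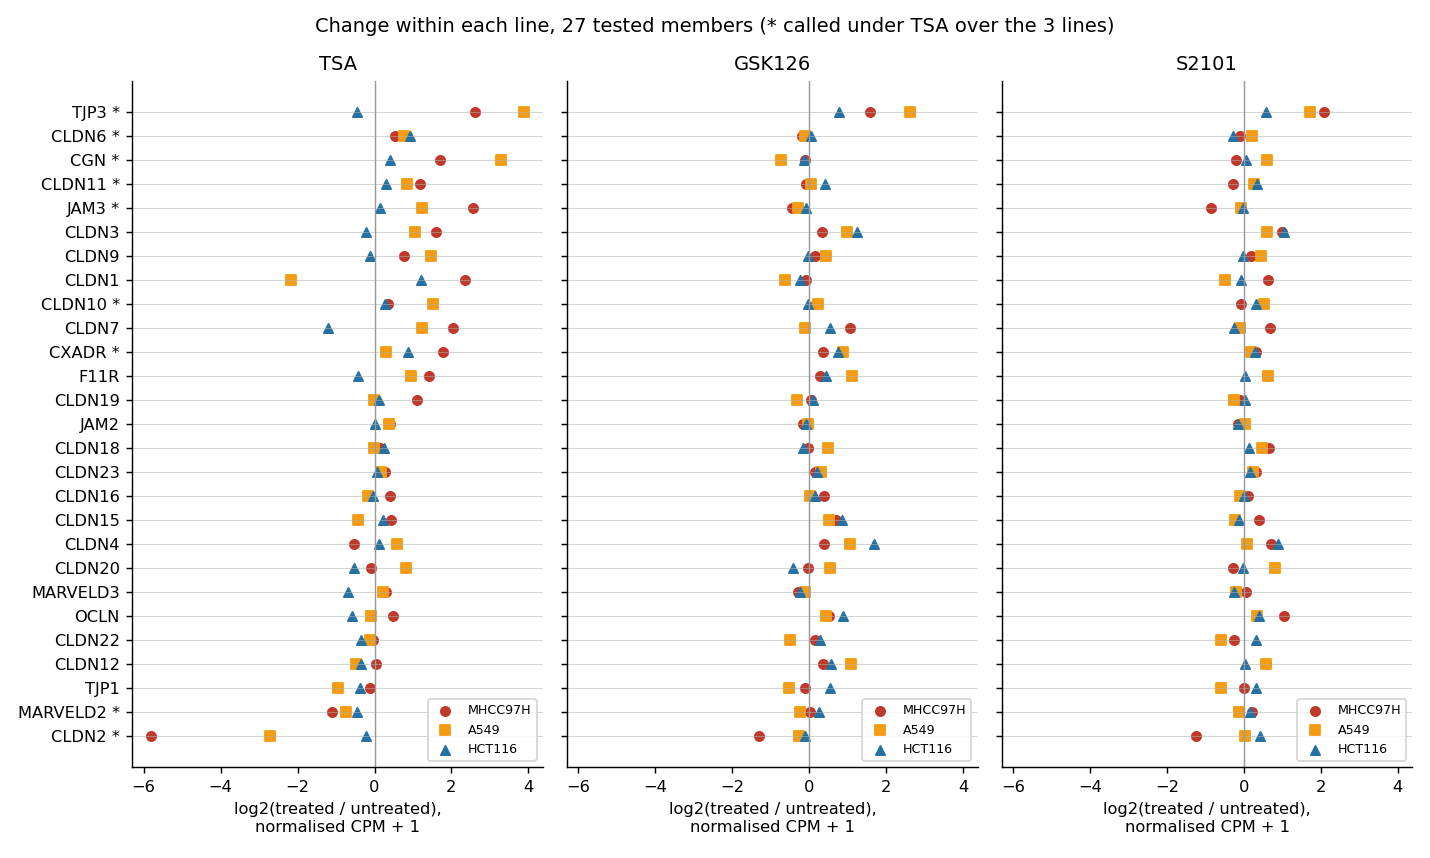
Log2 ratio of treated over untreated normalised CPM plus 1 within each line (x axis; 1 point per line, shape and colour by line) for the 27 tested members, with 1 panel per compound and genes ordered by their fitted change under TSA. Under TSA, CLDN2 reaches -5.81 in MHCC97H and TJP3 3.90 in A549, while the HCT116 points stay within 1.22 of 0 on either side.

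GSK126 gave 0 called members in edgeR, as it gave 0 called genes of all tested (0%). At an unadjusted p under 0.05, 2809 genes passed. The median log2 change of the 27 members was 0.36, against 0.01 for all genes. CLDN4 had the smallest p, with 161 RPKM in HCT116 against 51.4 untreated, 94.5 against 69.4 in MHCC97H and 4.04 against 1.54 in A549. Its log2 change was 1.13 ± 0.34 (edgeR adjusted p = 0.143). CLDN12 (0.70 ± 0.23) and CLDN15 (0.74 ± 0.25) were also higher in each of the 3 GSK126 libraries than in the untreated library of the line, as were OCLN, CXADR, F11R, TJP3, CLDN3, CLDN16 and CLDN23. CLDN1, CLDN2, CGN, JAM2, JAM3 and MARVELD3 were lower in each of the 3. Some of these moves were slight: the smallest was 0.01 for CLDN16 and -0.04 for JAM2, and CLDN1 in HCT116 went from 3 reads to 0. The share of all genes that moved 1 way in all 3 lines is not given here. DESeq2, with 1214 of 12123 genes called (10%; 4.63% higher and 5.39% lower), called CLDN4, CLDN12 and CLDN15 higher, 3 of 16 members (adjusted p = 0.0251, 0.044 and 0.0411). The edgeR fit without the 3 TSA libraries called those and CXADR and TJP3 higher, 5 of 26, with 13% of all genes called (6.42% higher and 6.63% lower). Members at least 2-fold higher within a line were CLDN7 and TJP3 in MHCC97H (all genes 1.97%), CLDN4, CLDN12, TJP3 and F11R in A549 (6.48%), and CLDN3 and CLDN4 in HCT116 (2.44%). CLDN2, at 32.8 against 79.0 RPKM in MHCC97H, was the one member at least 2-fold lower there (all genes 0.219%), with 0 in A549 (5.05%) and 0 in HCT116 (1.78%).

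S2101 gave 0 called members and 0 called genes in edgeR (0%), with 852 genes at an unadjusted p under 0.05. DESeq2 called 23 of 12123 genes (0.19%; 0.157% higher and 0.033% lower) and 0 of 16 members. The median of the 27 members was 0.13 and that of all genes 0. OCLN had the smallest p among the members (log2 change 0.61 ± 0.26, edgeR adjusted p = 0.939), with 4.08 against 1.86 RPKM in MHCC97H, 5.49 against 3.98 in A549 and 12.5 against 9.23 in HCT116. CLDN2 measured 34 against 79.0 RPKM in MHCC97H, a within-line change of -1.24 (all genes at least 2-fold lower there 0.343%), and 6.38 against 5.75 in A549. Members at least 2-fold higher were OCLN and TJP3 in MHCC97H (all genes 1.91%), TJP3 in A549 (2.73%) and CLDN3 in HCT116 (0.828%). None was 2-fold lower in A549 (all genes 0.65%) or HCT116 (0.266%).

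Set against each other compound, TSA libraries were called higher for CGN, JAM3 and CLDN6 and lower for MARVELD2. TSA against GSK126 gave 6 called members of 27 (all genes 29%). CGN, JAM3 and CLDN6 were higher under TSA (all genes 14.7%), and CLDN4, CLDN12 and MARVELD2 lower (14.2%). The CGN difference was 2.31 ± 0.59 (adjusted p = 0.0187), that of CLDN12 was -0.95 ± 0.23 (0.0156) and that of CLDN4 was -1.05 ± 0.34 (0.0428). TSA against S2101 gave 4 (all genes 26.6%), with CGN, JAM3 and CLDN6 higher (13.5%) and MARVELD2 lower (13.1%). The TSA against GSK126 count was 0 without A549 (all genes 0%) and 1 without MHCC97H (6.66%). The TSA against S2101 count was 0 without A549 (0.105%) and 0 without MHCC97H (0%). These counts share the TSA libraries with each other and with the comparison to untreated cells. The S2101 comparison fell to 1 member, CLDN6, without the A549 S2101 library (all genes 11.4%), and rose to 7 without HCT116 (31.7%). Without HCT116 the TSA against GSK126 count was 7 (all genes 33.8%), with CLDN4, CLDN12 and MARVELD2 no longer called. The CLDN2 difference missed edgeR's threshold in both comparisons (adjusted p = 0.0905 and 0.0645). It passed in DESeq2 (0.0326 and 0.0138) and in edgeR without HCT116 (0.0104 and 0.0106).

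Other parts of the junction and its surroundings were followed in lists of known genes. Of 15 tested plaque and angulin genes outside the rule, TSA raised 4 and lowered 3 (46.7% called, all genes 34.6%). ILDR2, an angulin of tricellular contacts, changed by 3.23 ± 0.62 (adjusted p = 0.00567), and LSR, the angulin that recruits tricellulin, by 1.54 ± 0.36 (0.0119). LSR went from 3.14 to 23.5 RPKM in A549 and from 85.9 to 173 in HCT116. CLMP, an adhesion molecule related to CXADR, fell by 2.88 on the log2 scale (adjusted p = 0.0266) and MARVELD1 by 2.38 (0.00216). Of 16 tested polarity genes, 4 rose and 2 fell (37.5%, all genes 34.6%). PARD6A (2.34 ± 0.58), CRB2 (3.05 ± 0.97) and LLGL2 (1.49 ± 0.34) were among those that rose, and PATJ, listed under its older name INADL, fell by 0.99. The medians of these lists were 0.50 and 0.11, and neither list had a call under GSK126 or S2101. The genes with the largest uncalled changes were AMOTL2 (-1.17) and ILDR2 (-0.91) under GSK126 and AMOTL2 (-0.98) and ILDR1 (0.71) under S2101 in the first list. In the second they were PARD3B (0.76) and CRB2 (0.75), and PARD6A (1.57) and CRB2 (0.60).

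Of 23 genes for epithelial state and adhesion, 4 were called higher under TSA and 0 lower (17.4%, all genes 34.6%), with a list median of 0.65. They were the grainyhead factors GRHL3 (3.49 ± 0.58, adjusted p = 0.00353) and GRHL1 (2.22 ± 0.73, 0.0429), which maintain epithelial junctions, and the repressors SNAI2 (2.29 ± 0.66, 0.0264) and SNAI1 (1.53 ± 0.42, 0.0225), which act against them. CDH1, the E-cadherin gene, was not called (0.71 ± 0.39, adjusted p = 0.179), nor were EPCAM (0.58 ± 0.62), ZEB1 (-0.25 ± 0.52) and VIM (0.39 ± 0.67). VIM, the mesenchymal filament gene, measured 250 to 777 RPKM in A549 and at most 4.77 in the other lines. Under GSK126 and S2101 no gene of the list was called, with ELF3 at 1.23 under GSK126 and OVOL2 at 1.80 under S2101. Of 12 tested regulators reported for claudin genes, STAT3 (1.52 ± 0.22), VDR (0.97 ± 0.21) and FOXO1 (0.81 ± 0.25) rose and 2 fell, SP1 among them (41.7%, all genes 34.6%). SP1 changed by -0.77 ± 0.15 (adjusted p = 0.00562). None was called under GSK126 (largest FOXO1 1.03 and CDX2 0.54) or S2101 (NKX2-1 -0.95 and GATA6 -0.43). The part of these regulators in the junction genes was not tested.

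Marker lists for other cell types were read against the same 34.6% of all genes called under TSA. Of 4 tested liver markers SERPINA1 was called (1.24 ± 0.42, adjusted p = 0.0448), and none of the tested colon (4), lung (3) or blood and vessel (2) markers was.

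The 5 genes whose pattern over the 12 libraries was most like that of CLDN2, among 12343 genes compared on log2(normalised CPM + 1), were ATRX (Pearson r = 0.976), SFXN5 (0.970), COMMD5 (0.969), CLMP (0.966) and FOXQ1 (0.965). The 12 points share their lines and conditions, so the values describe a pattern and carry no test. FOXQ1, a forkhead transcription factor, measured 48.5 RPKM in untreated MHCC97H, 1.08 under TSA, 42.6 under GSK126 and 57.4 under S2101. In A549 it measured 1.96, 0.432, 3.65 and 4.21 RPKM, and in HCT116 at most 0.0590. CLMP went from 18.7 to 0.903 RPKM under TSA in MHCC97H and from 3.45 to 0.306 in A549. Unlike CLDN2, neither FOXQ1 nor CLMP was lower by 2-fold under GSK126 or S2101 in MHCC97H.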

How the data were processed

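For each library the authors deposited raw counts of reads for every gene. RPKM values stand beside the counts, and the authors took each gene's longest transcript as its length, per the file headers. The submitters' processing notes name GRCh38 and hg38. Which aligner and counter were used, and whether strand was respected, is not given in the sources used here; counts of overlapping genes are therefore uncertain. An entry naming no gene, in 11 tables, was left out.

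Counts were tested with edgeR 4.0.16 (R 4.3.3): TMM, filterByExpr (16929 genes), quasi-likelihood F test, condition and cell line as terms, 12 libraries, 6 residual degrees of freedom, Benjamini-Hochberg over all genes. The line pairs treated and untreated libraries, per the labels. The code was tested on simulated counts. Alternatives were RLE factors, other filters, DESeq2 1.42.0, other terms, fewer libraries and, for values within a line, other pseudocounts. Coordinates are RefSeq's on GRCh38.p14 and exon overlaps GENCODE 29's.

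Members and lists were chosen with earlier results of these data known. All members may be named. Per-sample values are given for those called under a compound or reaching 20 RPKM. For JAM3 and MARVELD2 the values under GSK126 and S2101 are given in part as ranges. Of each other list up to 4 called genes per compound with the largest change are named, else the 2 largest where shown, plus CDH1, EPCAM, ZEB1, VIM, the 5 genes most like CLDN2, and genes overlapping members, which were picked after the overlaps were seen. SP1 was added after its values were seen. Some genes of these lists that the rule would name are not reported here.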

Additional observations from a re-analysis of the deposited data

Results flagged for a closer look

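Under TSA, 2 claudins moved at least 2-fold in opposite directions in different lines. CLDN1 changed by 2.35 on the log2 scale in MHCC97H and 1.22 in HCT116, where it was low. It changed by -2.16 in A549, where it was the main claudin of untreated cells. CLDN7 changed by 2.03 in MHCC97H and 1.23 in A549, where it was low, and by -1.22 in HCT116, its main line. The HCT116 value of CLDN1 rests on 3 reads untreated and 29 under TSA. Each line has 1 library per condition, so these differences between lines were not tested.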

How the results depend on the processing

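Counts of called members moved by over 1.5 times in some of the settings that follow. Settings with smaller moves stand beside them, such as TSA against untreated without HCT116 (9 to 10). For TSA against untreated the 9 calls became 5 with at least 10 CPM in 3 libraries (14 members tested, all genes 37.4%). They became 0 on the 6 libraries compared (all genes 0%). With a line left out they became 0 without MHCC97H (7.05%), 0 without A549 (0.0741%) and 10 without HCT116 (40%). For GSK126 the 0 became 5 without the 3 TSA libraries (all genes 13%) and 3 in DESeq2 (10%). For TSA against GSK126 the 6 became 3 at 10 CPM (all genes 32.7%), 10 in DESeq2 (32.7%) and 0 on the 6 libraries compared (0.996%). With a line left out they became 0 to 7 (all genes 0% to 33.8%). For TSA against S2101 the 4 became 2 at 10 CPM (all genes 29.5%) and 0 on the 6 libraries compared (0%). With a line or the A549 S2101 library left out they became 0 to 7 (all genes 0% to 31.7%). At 10 CPM, with 14 members tested, MHCC97H against A549 gave 9 (all genes 45.9%) and HCT116 against MHCC97H 10 (59.1%). Every call still tested at 10 CPM was kept in both, for TSA against untreated and for TSA against S2101. For TSA against GSK126, 3 of the 4 still tested were kept. With a condition left out, MHCC97H against A549 gave 6 to 18 (all genes 25.1% to 56.1%). HCT116 against MHCC97H gave 11 to 18 (38.8% to 64.8%). Without the replicate block, that is without the cell line term that pairs the libraries of a line, 0 members were called for TSA against each of untreated, GSK126 and S2101. All genes called there were 1.59%, 0.0854% and 0%. RLE factors kept all 9 TSA calls, no filter kept 8 and DESeq2 kept 8. No result recomputed under these alternatives reversed. The design holds 1 library per line and condition, and low members such as CLDN6, CLDN10 and CLDN11 rest on under 100 reads per library.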
